A study of Canis lupus familiaris with 25 samples.

Results

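The AP-1 genes FOS, FOSB, FOSL1, FOSL2, JUN, JUNB and JUND, together with ATF3, EGR1 and IER2, were followed in canine tumors of the perianal region. They were taken by symbol from the deposited count table, where they are 10 of 24532 genes. AP-1 is a dimer of basic leucine zipper proteins in which a JUN protein pairs with a FOS, ATF or second JUN protein. FOS, FOSB, JUN, JUNB, ATF3, EGR1 and IER2 are immediate early genes, transcribed soon after a growth factor or stress signal without new protein synthesis, and their mRNAs are short-lived. FOSL1 and FOSL2 respond later and longer, and JUND is present in most resting cells.

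The study compared 3′ RNA sequencing with RNA hybridization in archived tumors of dogs. The sequencing counts are used here. Libraries were made with QuantSeq, which yields 1 read per transcript near its 3′ end, from formalin-fixed, paraffin-embedded tissue of privately owned pet dogs of mixed breeds. Adjacent tissue had been removed by the authors. Hepatoid gland adenoma (HGA), a benign tumor, came from 10 dogs aged 8 to 14 years (median 12). Primary apocrine gland anal sac adenocarcinoma (AGASAC) came from 11 dogs aged 8 to 12.5 years (median 10). Sublumbar lymph node metastases of AGASAC came from 4 of these dogs, numbers 1 to 4, aged 8 to 10 years (median 9). A sample had 1562347 to 6389555 counts in HGA (median 2506085), 2581453 to 4218340 in primary AGASAC (median 2950459) and 2857541 to 3289546 in metastases (median 3102626). Levels are counts scaled to library size (CPM) after TMM normalization over 25 samples, so 3 counts, the floor used here, equal 0.543 to 1.84 CPM in HGA, 0.729 to 1.05 in primary AGASAC and 0.796 to 0.973 in metastases. Floors, and intervals of shares within a sample, cover counting error only. They may be too narrow, because reads copied by PCR could not be recognized without molecular barcodes. Intervals of log2 fold changes also cover variation between samples.

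The tissues carried the epithelial markers of their labels. The summed CPM of 8 hepatoid gland markers was 4909 to 39386 in HGA (median 21903), 2.43 to 42.0 in primary AGASAC (median 13.3) and 4.18 to 35.5 in metastases. The summed CPM of 7 apocrine gland markers was 6.45 to 148 in HGA (median 81.0), 5155 to 10365 in primary AGASAC (median 7359) and 4373 to 11010 in metastases. No HGA overlapped an AGASAC sample in either sum. HGA 10 had the lowest hepatoid sum. Not every marker followed its label: PLIN5, listed as hepatoid, was at 0 counts in 10 of 10 HGA and at 1.31 to 19.6 CPM in primary AGASAC, and AWAT1 was at 0 counts in 8 of 10 HGA.

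Most of the 10 genes were well above the floor in all 3 tumor groups. By mean CPM, the order in HGA was JUND (245), FOSL2 (134), JUN (127), IER2 (103), JUNB (94.4), EGR1 (40.8), FOS (38.2), ATF3 (8.10), FOSB (2.28) and FOSL1 (0.733). In primary AGASAC it was JUND (446), JUN (421), JUNB (178), IER2 (151), FOS (88.1), EGR1 (75.5), FOSL2 (39.8), ATF3 (6.07), FOSB (3.85) and FOSL1 (0.846). FOSL2, JUN, IER2 and JUNB in HGA, like JUND and JUN in primary AGASAC, lay within the spread between samples and have no clear order. Levels of different genes can be set side by side only roughly: reads do not scale with transcript length in this method, but how completely each 3′ end was annotated was not tested. FOSL2 ranked 1383 among 24532 genes by mean CPM in HGA and 4731 in primary AGASAC. JUN ranked 1466 in HGA and 278 in primary AGASAC.

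**Figure D1:**
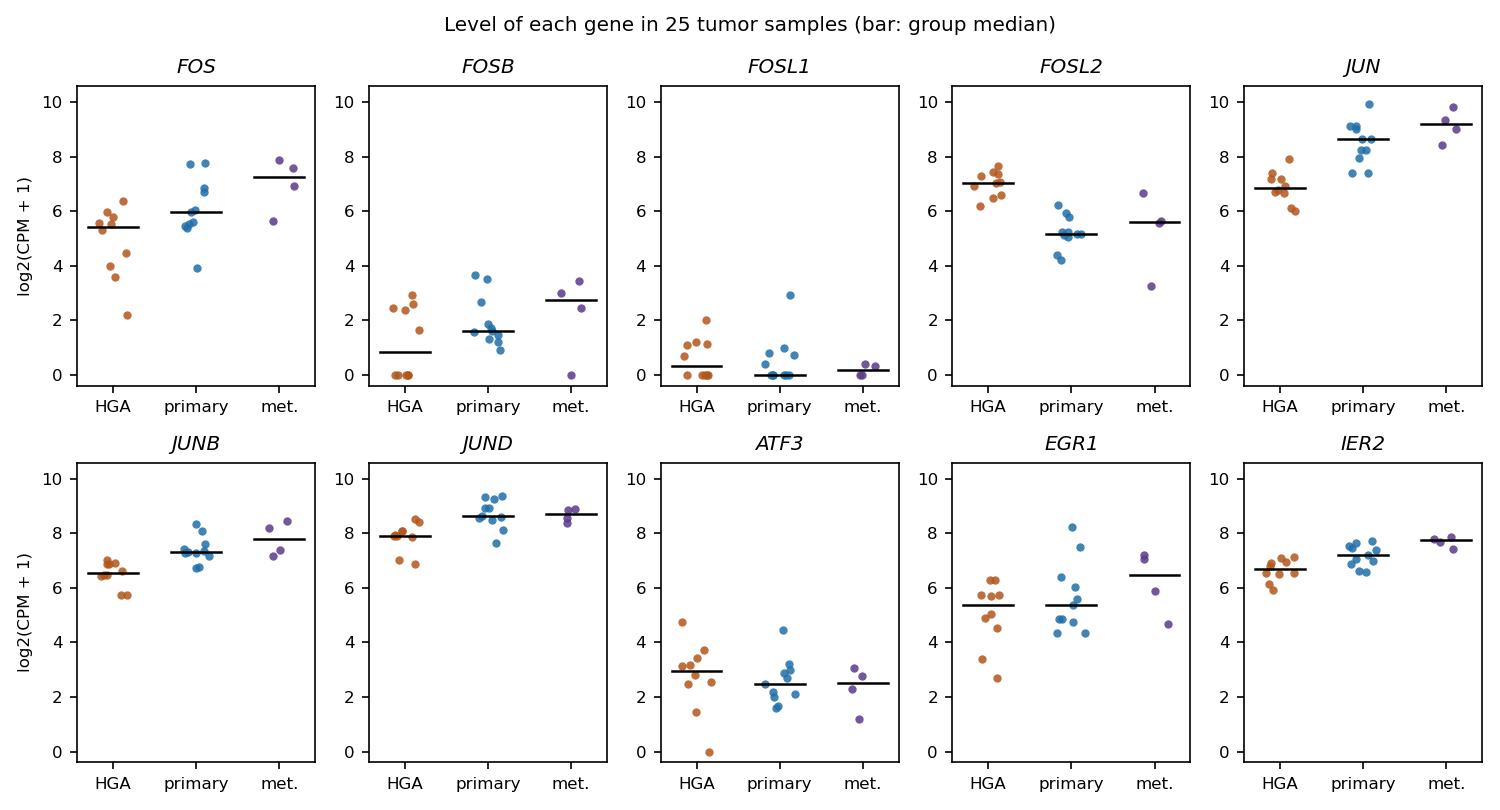
Level of each of the 10 genes in 25 tumor samples, 1 point per sample with a bar at the group median. FOSL2 is high in HGA, JUN and JUNB are high in both AGASAC groups, and FOSB and FOSL1 lie near 0.

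In HGA compared with primary AGASAC, FOSL2 mRNA was more abundant and JUN mRNA less abundant. JUNB and JUND passed by adjusted p at less than 2-fold, lower in HGA. JUNB did not pass once naming series was taken into account, and JUND did not pass within naming series A (edgeR QL, Benjamini-Yekutieli adjusted p 0.0737). The remaining genes that could be tested, FOS, ATF3, EGR1 and IER2, were not called different. A gene was called at an adjusted p of at most 0.05 in the edgeR QL test (Benjamini-Yekutieli) together with a log2 fold change of at least 1 in size.

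FOS had 3.62 CPM in HGA 2, the lowest, a median of 42.4 and 82.9 in HGA 7, the highest. In primary AGASAC FOS was 14.4 (primary 2) to 217 (primary 4), with a median of 62.0. The groups overlapped over most of the HGA range. Primary 4 and primary 5 (213 CPM) stood highest, and primaries 1 (116 CPM) and 11 (104 CPM) also lay above every HGA. The log2 fold change of FOS in HGA relative to primary AGASAC was −1.19 (SE 0.46), not called (edgeR QL, Benjamini-Yekutieli adjusted p 0.368), although it passed with the Benjamini-Hochberg adjustment (edgeR QL, 0.0369). FOSB was at 0 counts in 5 of 10 HGA and at most 6.69 CPM (median 1.08), against 0.904 to 11.8 CPM (median 2.07) in primary AGASAC. FOSL1 was at 0 counts in 5 of 10 HGA and 6 of 11 primary AGASAC, and its highest values were 3.07 CPM in HGA 4 and 6.59 CPM in primary 5. Both genes therefore lay near the floor in most samples, where 0 counts allows up to 3 counts, and neither passed the filter on low counts. FOSL2 ran from 72.5 CPM in HGA 9 to 203 in HGA 4, with a median of 132. In primary AGASAC FOSL2 ran from 17.8 (primary 3) to 74.7 (primary 1), with a median of 35.1. All HGA but sample 9 lay above every primary AGASAC. FOSL2 was 3.44-fold higher in HGA, a log2 fold change of 1.78 (SE 0.24, 95% interval 1.30 to 2.27; edgeR QL, Benjamini-Yekutieli adjusted p 1.3e-05). Without any 1 sample it stayed called, between 1.70 and 1.91.

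JUN ran from 63.6 CPM in HGA 9 to 241 in HGA 5, with a median of 116. In primary AGASAC JUN ran from 169 (primary 6) to 993 (primary 5), with a median of 400. Of the HGA, 8 of 10 lay below every primary AGASAC, and 9 of 11 primary AGASAC lay above every HGA. JUN fell by 1.70 log2 units in HGA relative to primary AGASAC (SE 0.29; edgeR QL, Benjamini-Yekutieli adjusted p 4.7e-04), a 3.25-fold difference. Without primary 5 the value was −1.49, still called. JUNB was 52.6 to 128 CPM in HGA (median 92.4) and 106 to 321 in primary AGASAC (median 160). The ranges touched only at the top of HGA and the bottom of primary AGASAC, with 6 of 10 HGA below all primaries. The JUNB log2 fold change was −0.89 (SE 0.21) and its adjusted p in edgeR QL (Benjamini-Yekutieli) 0.0105, so the fold kept it from being called. JUNB was −0.62 with naming series as a covariate and without primary 4 (edgeR QL, Benjamini-Yekutieli adjusted p 0.714), and −0.54 within naming series A (edgeR QL, Benjamini-Yekutieli adjusted p 1). JUND was 116 to 371 CPM in HGA (median 241) and 197 to 670 in primary AGASAC (median 399). Of the primaries, 8 of 11 lay above every HGA, but only 2 of 10 HGA lay below every primary. The JUND log2 fold change was −0.83 (SE 0.23), again under the fold limit (edgeR QL, Benjamini-Yekutieli adjusted p 0.0425, and 0.0126 to 0.0913 when single samples were left out).

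ATF3 was 0 CPM in HGA 9 and 26.2 in HGA 10, with a median of 6.88, and 2.01 to 21.2 in primary AGASAC (median 4.57). The groups overlapped almost fully. The ATF3 log2 fold change was 0.44, 0.04 without HGA 10 and 0.85 without primary 5, and turned to −0.19 with extraction batch as a covariate and −0.70 within extraction batch 5. It was 0.91 within naming series A of the sequencing files and 1.25 with naming series as a covariate and without primary 4, and was called in none of these fits. EGR1 was 5.52 to 78.1 CPM in HGA (median 41.3) and 19.2 to 298 in primary AGASAC (median 40.0). The medians were nearly equal, and primary 5 held the highest value. EGR1 was not called at a log2 fold change of −0.88, stayed negative with extraction batch as a covariate, and was −1.19, −1.17 and −0.84 within extraction batches 5, 6 and 8. The EGR1 value turned to 0.45 within naming series A, and to 0.20 with naming series as a covariate, a fit that also leaves out primary 4, whose series is not given (−0.67 without primary 4 alone, and −0.37 without primary 5 alone). IER2 was the steadiest of the 10 genes, with 60.1 to 138 CPM in HGA (median 102) and 94.6 to 209 in primary AGASAC (median 148). The 2 ranges overlapped, and the log2 fold change of −0.51 was not called.

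Taken by count, 2 of 8 tested members were called between HGA and primary AGASAC, next to 25.1% of 12070 tested genes, so the members were called about as often as any gene. By adjusted p at any fold 4 of 8 members passed, next to 30.9% of genes. Groups without overlap were found for 0 of 8 members, next to 9.13% of genes. The median log2 fold change was −0.85 over the members and −0.03 over all tested genes. In bulk tissue, fewer cells of a type and less mRNA per cell cannot be told apart.

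HGA and primary AGASAC were unevenly spread over RNA extraction batches and naming series. Within naming series A, with 9 HGA and 3 primary AGASAC, JUN was −2.13 and called, whereas FOSL2 was 1.66 and not called (edgeR QL, Benjamini-Yekutieli adjusted p 0.0734). JUND was −1.07 there and not called either (edgeR QL, Benjamini-Yekutieli adjusted p 0.0737). FOSL2 was 2.45, 2.03 and 1.14 within extraction batches 5, 6 and 8, and JUN was −1.64, −0.82 and −2.44, with 2 or 3 samples of each tumor per batch and 0 members called in any. With extraction batch as a covariate FOSL2 was 1.88 and JUN −1.69, both called. With naming series as a covariate and without primary 4, whose series is not given, FOSL2 was 1.80 and JUN −1.81, both called, and JUND was called too at −1.22. Without primary 4 alone FOSL2 was 1.77, JUN −1.71 and JUND −0.78, the last not called.

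**Figure D2:**
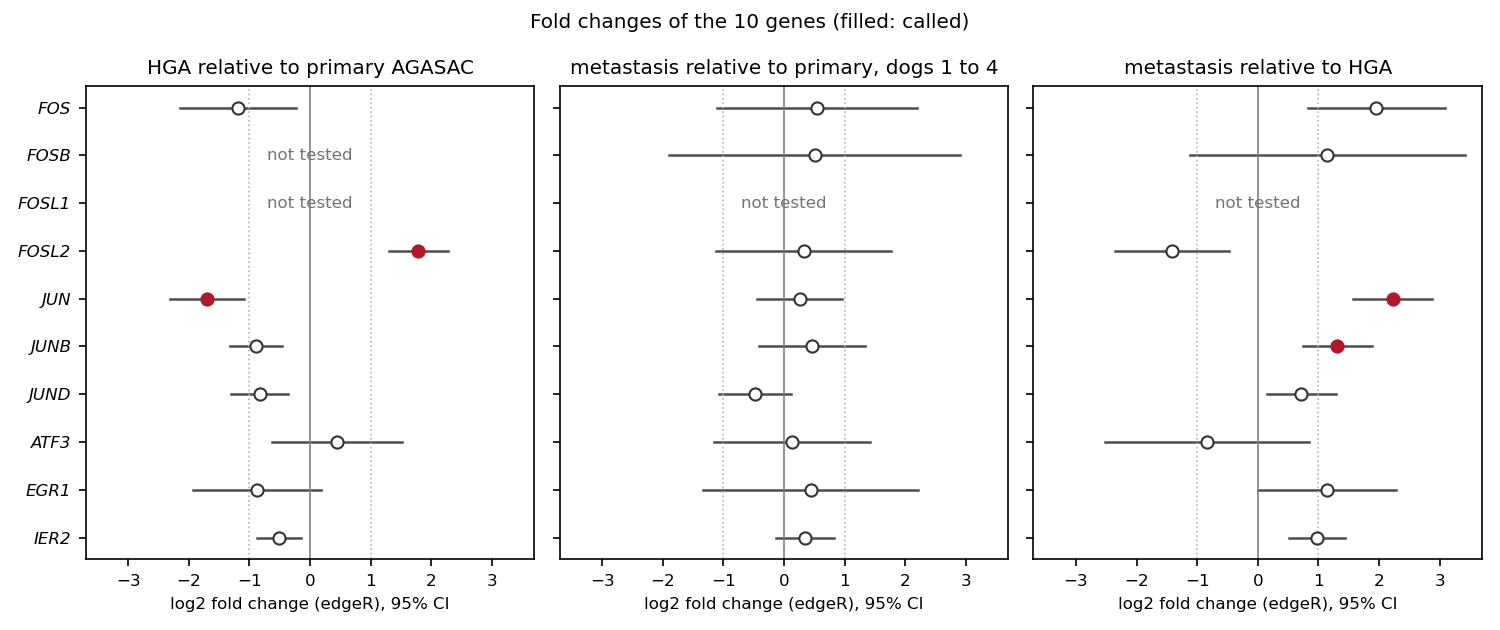
Log2 fold changes with 95% intervals in 3 comparisons for the genes that passed the filter on low counts, filled points called and FOSL1 and FOSB marked where not tested. FOSL2 stands to the right and JUN to the left in HGA relative to primary AGASAC, and no point is filled for metastasis relative to primary.

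The ratio of JUN to FOSL2 separated HGA from AGASAC without overlap. The ratios were chosen after the values had been seen and are given as description. JUN counts per FOSL2 count were 0.494 to 1.79 in HGA (median 0.969), 4.80 to 31.4 in primary AGASAC (median 9.28) and 5.09, 19.4, 40.1 and 13.3 in metastases 1 to 4. No HGA reached the lowest AGASAC sample. FOSL2 counts per FOS count were 1.87 to 47.9 in HGA (median 3.01), 0.169 to 2.41 in primary AGASAC (median 0.543) and 2.07, 0.199, 0.0712 and 0.253 in metastases 1 to 4. FOSL2 exceeded FOS in 10 of 10 HGA and in 1 of 11 primary AGASAC (primary 2). HGA 2, with the lowest FOS of its group, made the highest ratio.

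Shares within the FOS and JUN families were taken from the counts of each sample. FOSL2 gave a median of 74.1% of FOS family counts in HGA, from 63.6% in HGA 6 (95% Wilson interval 59.9% to 67.1%) to 98.0% in HGA 2 (95% Wilson interval 96.0% to 99.0%). In primary AGASAC the FOSL2 median was 34.5%, from 13.9% in primary 4 (95% Wilson interval 11.8% to 16.2%) to 67.5% in primary 2 (95% Wilson interval 59.8% to 74.3%). FOSL2 was 67.4% of the family in metastasis 1 (95% Wilson interval 63.0% to 71.5%) and 6.31% in metastasis 3 (95% Wilson interval 4.37% to 9.02%). FOS was the main FOS family transcript in most AGASAC samples, at a median of 61.5% in primary tumors against 25.2% in HGA. In the JUN family JUND held a median of 54.5% in HGA and 47.6% in primary AGASAC, and JUN 23.9% and 38.7%. The order turned in metastases, with medians of 48.3% for JUN and 34.5% for JUND.

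**Figure D3:**
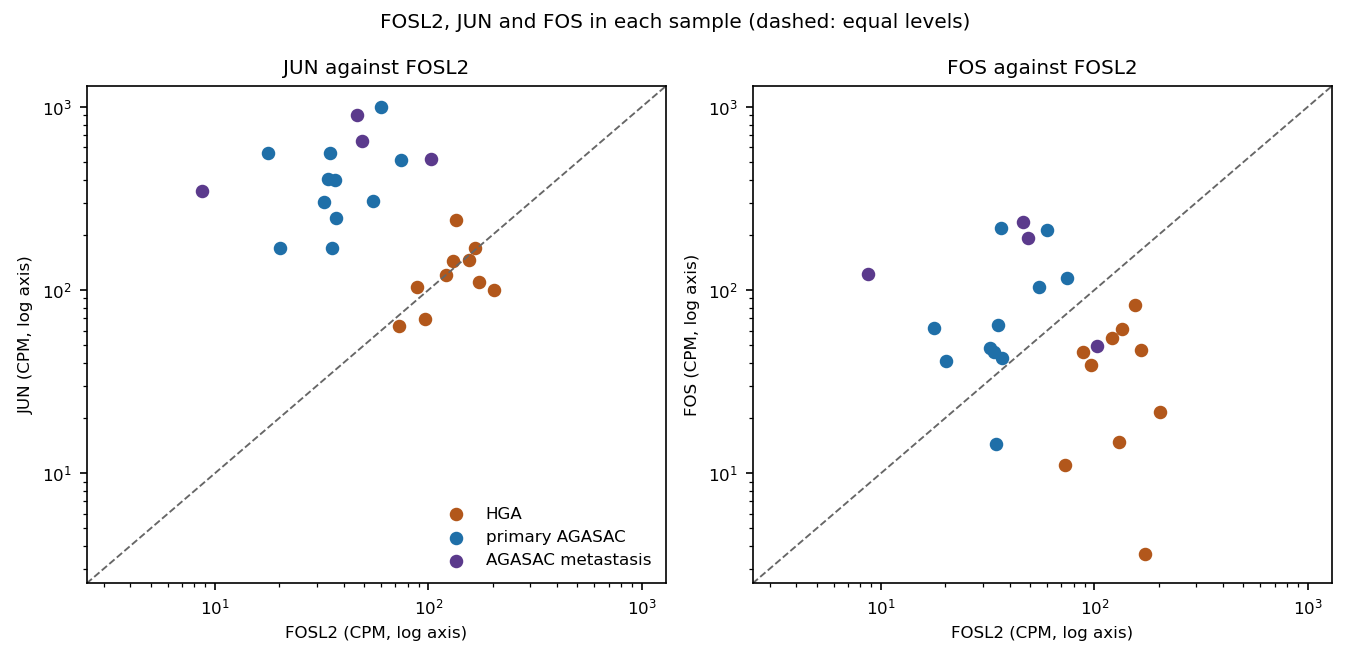
JUN and FOS levels against the FOSL2 level of the same sample, with a dashed line at equal levels. HGA lie near the line for JUN and below it for FOS, and nearly all AGASAC samples lie above it.

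Between metastases and the primary AGASAC of the same dogs, the members did not show a shared shift. FOS was 49.6, 234, 122 and 193 CPM in metastases 1 to 4 and 116, 14.4, 62.0 and 217 in their primaries. FOS was thus higher in the metastasis of dogs 2 and 3 and lower in dogs 1 and 4. FOSB was 0, 9.82, 7.08 and 4.47 CPM in metastases and 0.904, 1.96, 1.48 and 10.56 in primaries, higher in the metastasis of dogs 2 and 3. FOSL1 had at most 1 count in a metastasis. FOSL2 was 103, 46.4, 8.68 and 48.9 CPM in metastases and 74.7, 34.6, 17.8 and 36.7 in primaries, lower in the metastasis of dog 3 only. JUN was 522, 900, 348 and 651 CPM in metastases and 514, 563, 558 and 400 in primaries, again lower in dog 3 only. JUNB was 141, 352, 168 and 289 CPM in metastases and 163, 109, 144 and 274 in primaries, with the largest gap in dog 2. JUND was 375, 474, 329 and 463 CPM in metastases and 649, 670, 355 and 613 in primaries, lower in the metastasis of 4 of 4 dogs. ATF3 was 1.30, 5.84, 3.86 and 7.35 CPM in metastases and 3.01, 3.27, 3.56 and 6.95 in primaries, low in all and lower in the metastasis of dog 1 only. EGR1 was 24.3, 149, 58.5 and 132 CPM in metastases and 28.03, 19.3, 40.0 and 178 in primaries, with the largest gap in dog 2. IER2 was 205, 223, 172 and 234 CPM in metastases and 209, 148, 127 and 169 in primaries, lower in dog 1 only. The metastasis was higher in 2, 8, 6 and 6 of 10 members in dogs 1 to 4.

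The edgeR QL test (Benjamini-Yekutieli) called 0 of 9 tested members between metastases and matched primaries, next to 0% of 12629 genes. Unadjusted p lay under 0.05 for 145 genes and 0 members in this unpaired fit, and for 491 genes with dog as a block. DESeq2 called 5 genes and edgeR QL with dog as a block called 1, with 0 members in either. The DESeq2 calls were MYLPF, MYL1, ACTA1 and CKM, lower in metastases, and SPOCK2, higher, and the blocked call was ACTA1. The lower genes had means of at most 1.62 CPM in metastases. Skeletal muscle markers summed to 18.4, 359, 10.1 and 310 CPM in primaries 1 to 4 and to 0.324, 0.531, 1.93 and 0.958 in their metastases. These markers and JUND both fell in every dog. The log2 ratio of JUND CPM + 1, metastasis over primary, was −0.79, −0.50, −0.11 and −0.41 in dogs 1 to 4. Whether JUND and muscle content are linked was not tested. The median log2 fold change was 0.35 over the members and 0.00 over all tested genes. In the unpaired fit JUND was −0.48 (95% interval −1.08 to 0.12) and IER2 0.35 (95% interval −0.12 to 0.83). These intervals, and the fits with single samples left out, do not use the pairing by dog. With dog as a block JUND, now under 0.05, was −0.45 (unadjusted p 0.0276, edgeR QL, Benjamini-Yekutieli adjusted p 1). Over all alternatives and single samples left out, JUND ranged from −0.65 to −0.12. The values of FOSL2 (0.33), JUN (0.26) and ATF3 (0.13) changed sign when single samples were left out, reaching −0.22, −0.01 and −0.19, and ATF3 was −0.40 in 1 fit of all 25 samples, which sets the metastases against all 11 primaries. FOS (0.55) ranged from 0.20 to 1.25 and EGR1 (0.44) from 0.09 to 1.66 when single samples were left out, both highest without primary 4.

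**Figure D4:**
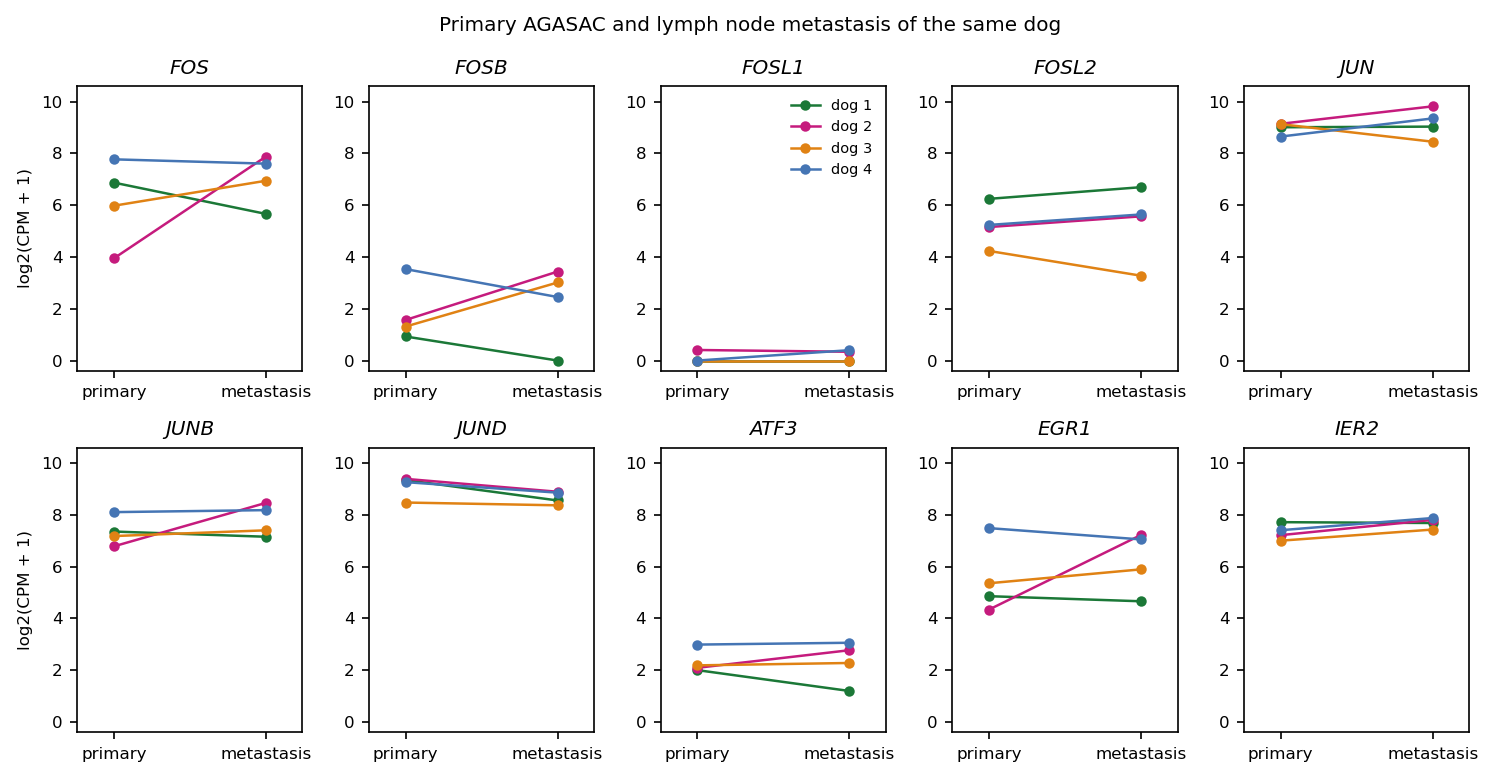
Level of each of the 10 genes in the primary AGASAC and the lymph node metastasis of dogs 1 to 4, joined by dog. Lines run in both directions for most genes, and all lines fall for JUND.

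Metastases compared with HGA showed higher JUN and JUNB. The HGA samples are those already compared with the primary tumors, so the 2 comparisons share them and are not independent. JUN in metastases, 348 to 900 CPM, lay above all 10 HGA, of which the highest was at 241. JUN rose by 2.23 log2 units, or 4.68-fold (SE 0.31, 95% interval 1.58 to 2.88; edgeR QL, Benjamini-Yekutieli adjusted p 4.3e-04), beside 1.70 log2 units between primary AGASAC and HGA. JUNB in metastases, 141 to 352 CPM, also lay above all HGA. JUNB rose by 1.31 log2 units, or 2.49-fold (SE 0.27; edgeR QL, Benjamini-Yekutieli adjusted p 0.0141). The JUNB call was lost without metastasis 2 (1.06) and without metastasis 4 (1.21). IER2 in metastases, 172 to 234 CPM, lay above all HGA as well, yet its log2 fold change of 0.98 fell short of the limit (edgeR QL, Benjamini-Yekutieli adjusted p 0.0249) when all samples were used. IER2 was called without metastasis 3 (1.07) and without HGA 1 (1.00), 6 (1.00), 7 (1.04) or 10 (1.05), and also by DESeq2 (1.03), with RLE normalization (1.03), library size alone (1.27), no filter (1.00) or the strict filter (1.07).

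The other members were not called between metastases and HGA by edgeR QL with TMM normalization and the Benjamini-Yekutieli adjustment. FOS overlapped in metastasis 1 only, at a log2 fold change of 1.96 (SE 0.53; edgeR QL, Benjamini-Yekutieli adjusted p 0.100), and was called by DESeq2 (2.01), with library size alone (2.30) and with the Benjamini-Hochberg adjustment. FOSL2 was −1.42, with metastasis 1 inside the HGA range and the other 3 below it (edgeR QL, Benjamini-Yekutieli adjusted p 0.218), and was called with the Benjamini-Hochberg adjustment (edgeR QL, 0.0216). JUND was 0.72, EGR1 1.15, FOSB 1.15 and ATF3 −0.84. When single samples were left out, EGR1 was 0.80 to 1.47, FOSB 0.69 to 1.57 and ATF3 −1.16 to −0.43. Over all alternatives FOSB reached 3.03. Calls were made for 2 of 9 members, next to 16.1% of 13195 genes. By adjusted p at any fold 3 of 9 members passed, next to 16.5% of genes, and groups without overlap were found for 3 of 9 members, next to 16.1% of genes. The median log2 fold change was 1.15 over the members and −0.02 over all tested genes. That FOSL2 was called against primary AGASAC and not against metastases does not show that the 2 differences differ. All 4 metastases and every HGA but sample 10 are of naming series A, and without HGA 10 JUN was 2.29 and JUNB 1.33, both called.

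Some samples stood at the edge of their group in several members at once. Primary 5 had the highest FOSB, FOSL1, JUN, JUNB, ATF3 and EGR1 of its group, and also the highest skeletal muscle marker sum, 782 CPM. HGA 9 had the lowest FOSL2, JUN, JUNB, ATF3 and EGR1 of its group, the highest DV200 (92.7%; DV200 is the percentage of RNA fragments longer than 200 bases) and hepatoid marker sum (39386 CPM), and the lowest fibroblast (1231 CPM) and macrophage (90.8 CPM) sums. Metastasis 2 was highest of the 4 metastases in 6 members, metastasis 1 was lowest in 5 and tied at 0 counts in FOSL1, and metastasis 2 also had the highest fibroblast marker sum, 12955 CPM against 738 in metastasis 1. Whether tissue content sets these levels was not tested. The summed CPM of the 10 members was 517 to 976 in HGA (median 806), 922 to 2597 in primary AGASAC (median 1101) and 1218 to 2393 in metastases (median 1722).

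Within a tumor type, the relation of FOS with each other gene was computed on log2(CPM + 1) values, for 12056 genes in HGA and 12060 in primary AGASAC, and 0 genes passed a Benjamini-Hochberg adjusted permutation p of 0.05 in either. Unadjusted p lay under 0.05 for 714 genes in HGA and 547 in primary AGASAC. In primary AGASAC JUNB ranked 3 among all genes at r 0.874 (permutation p 5.5e-04, Benjamini-Hochberg 0.982) and rho 0.827 (permutation p 0.0027). The JUNB value was r 0.813 without primaries 2 and 4, the samples farthest out, and 0.888 within the 7 samples of naming series B. EGR1 in primary AGASAC ranked 14 at r 0.820 (permutation p 0.00134) and rho 0.727 (permutation p 0.0143), with r 0.775 without the same 2 samples and 0.936 within series B. In HGA IER2 ranked 133 at r 0.767 (permutation p 0.00968, Benjamini-Hochberg 0.683) and rho 0.794 (permutation p 0.00849). The IER2 value was 0.578 without HGA 2 and 9, and 0.771 within the 9 samples of naming series A. EGR1 in HGA gave r 0.632 (permutation p 0.0489) and rho 0.697 (permutation p 0.0301). Its r was 0.787 without HGA 2 and 9, and 0.617 within series A. FOSL2 gave r −0.04 with FOS in HGA, and JUND r −0.00 in primary AGASAC, so neither followed FOS there. In primary AGASAC FOSL2 gave r 0.492 with FOS (permutation p 0.123). That value was 0.730 without primaries 2 and 4, and 0.840 within series B. JUN gave r 0.305 there (permutation p 0.365), with 0.714 and 0.753 in the same subsets. RNA quality, as DV200, had medians of 72.95% in HGA, 76.0% in primary AGASAC and 79.65% in metastases. Within HGA and within primary AGASAC it was not related to any gene at a Benjamini-Hochberg adjusted permutation p of 0.05, and unadjusted p lay under 0.05 for 1083 and 410 genes, with EGR1 in HGA among them (r −0.637, rho −0.382, permutation p 0.0441 and 0.278, r −0.0948 without HGA 4 and 9). Among the 10 members, the largest value with DV200 in HGA, ATF3 at r −0.670 (rho −0.309), became 0.187 without HGA 4 and 9. JUN went from r −0.401 to 0.786 without the same samples. In primary AGASAC the largest r was that of JUND, 0.588 (permutation p 0.0564), and −0.0590 without primaries 1 and 11. FOSL1, near the floor, gave r −0.378 (permutation p 0.228) and rho −0.763 (permutation p 0.00916).

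**Figure D5:**
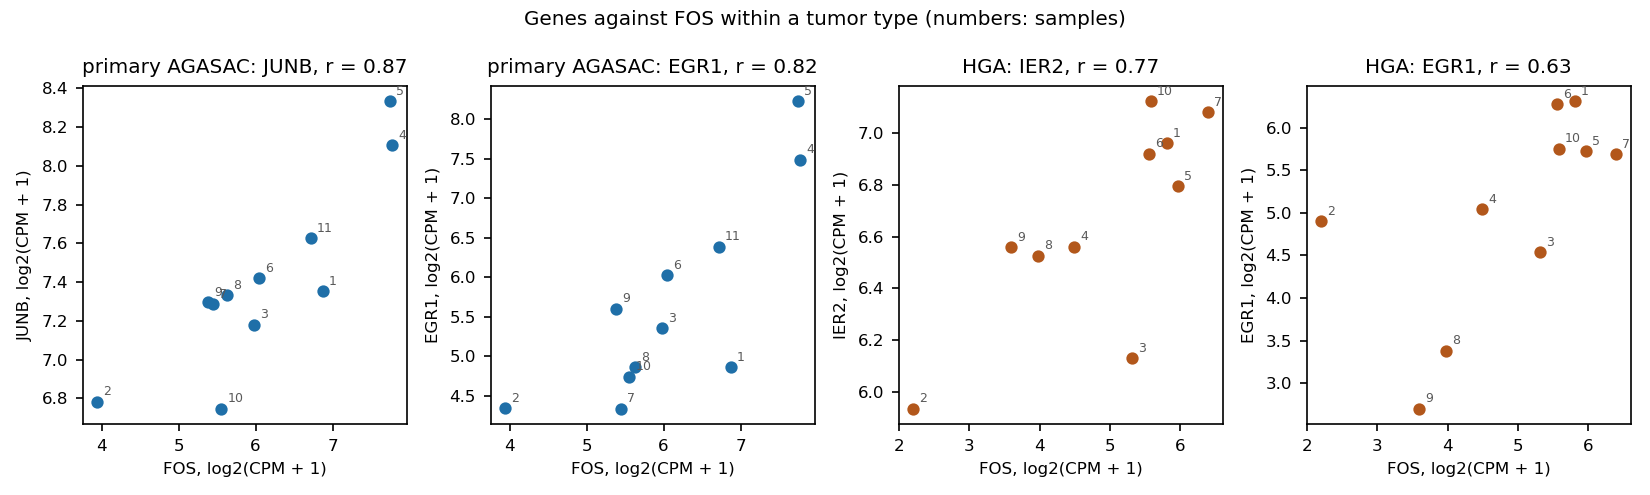
Levels of JUNB, EGR1 and IER2 against FOS within a tumor type, 1 numbered point per sample. The points rise together in all 4 panels, with single samples such as HGA 2 and 9 far out.

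Genes around AP-1 were looked at next. Their lists were chosen with earlier results of these data known, so the shares called are given as description. Of 13 other AP-1 partners, 8 were tested between HGA and primary AGASAC and 1 was called, next to 25.1% of all tested genes: ATF2, at 24.2 to 84.1 CPM in HGA (median 54.7) and 90.9 to 253 in primary AGASAC (median 161). The ATF2 groups did not overlap and the log2 fold change was −1.51, with a list median of −0.18. Between metastases and HGA ATF2 was called at 1.65, and the median of 9 tested partners, MAFA included, was 0.25. MAFA had 0 counts in 10 of 10 HGA and 3.51 to 16.4 CPM in metastases, over the highest HGA floor of 1.84. MAFA passed the filter on low counts through the metastases alone, so its call is not counted. Of 27 other immediate early genes tested between HGA and primary AGASAC, 5 were higher and 8 lower in HGA, next to 25.1% of all tested genes called. Their median was −0.75, beside −0.85 for the members. EGR3 showed 76.2 to 175 CPM in HGA (median 115) and 0 to 25.0 in primary AGASAC (median 5.24), without overlap. EGR3 had a log2 fold change of 3.77. KLF10 was 152 to 328 CPM in HGA (median 198) and 18.8 to 58.7 in primary AGASAC (median 34.1), also without overlap, at a log2 fold change of 2.68. NFKBIA, at 2.11, was higher too, whereas SGK1 (−3.02), BTG2 (−2.45) and CTGF (−1.84) were lower. The calls of SGK1 (−1.73) and BTG2 (−1.22) were lost with naming series as a covariate and without primary 4. Between metastases and HGA, 3 of 28 immediate early genes were higher and 2 lower (median 1.06), next to 16.1% of all tested genes called. The lower genes were EGR3 (−5.37) and KLF10 (−2.85). EGR3 was at a mean of 2.83 CPM in metastases against 118 in HGA, so the size of its fold rests on few counts. The higher genes were IER3 (1.89), SGK1 (1.83) and ZFP36 (1.11), and their calls were lost in 8, 2 and 6 of 14 fits with 1 sample left out.

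Of 26 upstream kinases, factors and corepressors tested, 3 were higher in HGA than in primary AGASAC (MKL1, RPS6KA5 and ELK3) and 1 lower (RPS6KA1). The list median was 0.38, and 25.1% of all tested genes were called. Of 10 AP-1 target genes tested, HMOX1 (3.97) and HBEGF (2.30) were higher and CCND1 (−3.38), TGFB1 (−2.06) and TIMP1 (−1.10) lower. The target list median was −0.06, again next to 25.1% of all tested genes called. The HMOX1 value was 3.04 without HGA 4. ELK3, HMOX1 and HBEGF were not called with naming series as a covariate and without primary 4. Over all alternatives ELK3 was 0.84 to 1.45, HMOX1 2.53 to 4.94 and HBEGF 1.38 to 2.89. Of 11 heat shock genes HSPD1 was higher (1.29) and HSP90AA1 lower (−1.16), with a median of 0.19. Between metastases and HGA, 3 of 13 targets were higher (CCND1, TGFB1 and TIMP1) and 0 lower in edgeR QL, next to 16.1% of all tested genes called, and the list median was 0.70. When single samples were left out, the TGFB1 call was lost in 9 of 14 fits, with values down to 1.01 without metastasis 1, and the TIMP1 call in 3 of 14. Of 28 upstream genes RPS6KA1 was higher (2.26) and MKL1 (−1.96) and RPS6KA5 (−2.07) lower, with a median of −0.24, and their calls were lost in 2, 3 and 10 of 14 such fits. Of 11 heat shock genes HSPD1 was lower (−1.30), with a median of −0.37. Between metastases and matched primaries, edgeR QL (Benjamini-Yekutieli) called 0 genes of any of these lists.

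Markers of other cells were set beside the members. Between HGA and primary AGASAC, edgeR QL called 0 markers of T cells, B cells, neutrophils, fibroblasts or smooth muscle, where 1, 1, 1, 7 and 5 could be tested, with unadjusted p under 0.05 for 1, 0, 1, 3 and 0 of them. It called 1 of 8 macrophage, 2 of 6 blood endothelium and 1 of 2 plasma cell markers, next to 25.1% of 12070 tested genes. Also called were 1 of 1 skeletal muscle and 1 of 2 squamous epithelium markers, ACTA1 and DSG1. ACTA1 had a mean of 1.41 CPM in HGA, and DSG1 a mean of 0.0535 CPM in primary AGASAC. Both passed the filter on low counts through the other group alone, so these calls are not counted. Skeletal muscle markers summed to 1.71 to 20.5 CPM in HGA (median 4.04), 4.37 to 782 in primary AGASAC (median 94.4) and 0.324 to 1.93 in metastases. T cell markers summed to 41.9 to 61.8 CPM in metastases and 1.84 to 47.6 in HGA (median 12.5). CD3G was at 0 counts in 5 of 10 HGA and at 10.3 to 13.1 CPM in metastases. Between metastases and HGA, VWF (−1.71) of blood endothelium and SDC1 (−5.18) of plasma cells were called lower in metastases, where 16.1% of all tested genes were called. The other plasma cell markers, JCHAIN, MZB1, POU2AF1 and TNFRSF17, had higher means in metastases than in HGA, with JCHAIN at 92.6 and 39.1 CPM. CD3G, DSG1 and KRTDAP were also called, but each was at or near 0 in 1 group, so their calls are not counted. B cell markers summed to 21.2 to 41.9 CPM in metastases and neutrophil markers to 15.2 to 55.6. Blood endothelium markers summed to medians of 287 CPM in HGA and 155 in primary AGASAC, macrophage markers to 196 and 331, and T cell markers to 12.5 and 24.5. Neutrophil markers had medians of 23.3 and 7.51. Plasma cell markers had medians of 494 and 76.5, carried by SDC1 (mean 477 and 13.0 CPM), while JCHAIN had means of 39.1 and 79.0 CPM. B cell markers ran from 6.15 to 65.7 CPM in HGA and 13.1 to 41.3 in primary AGASAC. Fibroblast markers had medians of 2575 and 3546, carried by COL1A1 (mean 1259 and 2483 CPM), while the median log2 fold change of the 7 fibroblast markers was 0.13. Smooth muscle markers had medians of 170 and 222, and squamous epithelium markers 455 and 84.1. How much of the FOSL2, JUN, JUNB and IER2 differences lies in the tumor cells was not tested.

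Between HGA and primary AGASAC, the edgeR QL test called FOSL2 higher and JUN lower in HGA. FOSL2 was not called within naming series A (1.66), or against metastases (−1.42) except with the Benjamini-Hochberg adjustment. JUN was called in both, and neither gene was called within a single extraction batch. FOS, EGR1 and ATF3 varied widely between samples of the same tumor type. They were not called by edgeR QL with TMM normalization and the Benjamini-Yekutieli adjustment. FOS was called between metastases and HGA by DESeq2, with library size alone and with the Benjamini-Hochberg adjustment, the last also between HGA and primary AGASAC.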

How the data were processed

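All values were computed from the deposited table of counts per sample, made by the authors: 24532 genes and 25 samples, with 0 unmapped per-sample columns. By the authors' account, reads were trimmed with cutadapt, mapped to CanFam3.1 with STAR and counted with featureCounts in 2 rounds, with genes extended by 2 kb and multi-mapped reads split evenly; versions were not given in the sources used here. The table also holds the authors' normalized counts, mean, shrunken log2 fold change with standard error, p and adjusted p of their comparison, which were not used. DV200 and ages came from the sample labels, and extraction batch and naming series, used for grouping alone, from the authors' sample lists. Genes were taken by exact symbol, and the members and lists were chosen with earlier results of these data known. R 4.3.3, edgeR 4.0.16 (QL test, TMM, filterByExpr with at least 10 counts and 15 in total, Benjamini-Yekutieli) and DESeq2 1.42.0 were run. Lists were other AP-1 bZIP partners, other immediate early genes, upstream kinases, factors and corepressors, AP-1 target genes, heat shock genes and markers of 12 tissues and cell types. Relations used log2(CPM + 1) and 100000 permutations.

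After removal of group means, each metastasis resembled the primary of its own dog (r 0.428 to 0.730 in 4 of 4 dogs). The replicate numbers of HGA and AGASAC do not pair (r −0.0460 to 0.0446 over 10 pairs). No duplicated samples were found (smallest chi-square per degree of freedom 13.5 in HGA, 27.0 in primary AGASAC and 35.9 in metastases). Genes within 2000 bases of a member were looked up in RefSeq of UU_Cfam_GSD_1.0, for neighbours only: JUN and FOSL2 each had a long noncoding RNA gene, FOSL1 had CCDC85B, ATF3 had 2 genes and the other 6 members none. Alternatives were other tests, normalizations, filters, adjustments, covariates, blocks, batches, pseudocounts and single samples left out.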

Additional observations from a re-analysis of the deposited data

Results flagged for a closer look

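Values far from the next in their group were sought in 52 groups of values from HGA and metastases, and 8 met the rule. Primary AGASAC was not searched, because the rule covers groups of 4 to 10 samples and it has 11. Chance gives about 1 in 20 groups only if values are normally distributed, which was not tested. All 8 were the highest value of their group, so the count cannot be set against that share. FOSL1 in HGA 4 was 3.07 CPM, the next 1.29. ATF3 in HGA 10 was 26.2 CPM, the next 12.0. The ratio of FOSL2 to FOS counts was 47.9 in HGA 2, the next 9.43, and 2.07 in metastasis 1, the next 0.253. The ratio of JUN to FOSL2 counts was 1.79 in HGA 5, the next 1.17. The summed B cell markers were 65.7 CPM in HGA 8, the next 29.7. The summed blood endothelium markers were 624 CPM in HGA 7, the next 339. The summed skeletal muscle markers were 20.5 CPM in HGA 8, the next 11.5. All samples were kept.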

How the results depend on the processing

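For HGA versus primary AGASAC, genes called were 1452 with at least 10 counts in every sample, where fewer genes were tested by construction (7410), 2009 with naming series as covariate and without primary 4, whose series is not given (2828 without primary 4 alone), and 262, 637 and 338 within extraction batches 5, 6 and 8. Members called were 4 with library size alone, 1 within naming series A, and 0 within extraction batch 5, 0 within extraction batch 6 and 0 within extraction batch 8. ATF3 was −0.19 with extraction batch as covariate and −0.70 within extraction batch 5, and EGR1 was 0.20 with naming series as covariate, again without primary 4, and 0.45 within naming series A. With the Benjamini-Hochberg adjustment FOS joined the called members. When single samples were left out, 2828 to 3373 genes were called and 2 members in all 21 fits. For AGASAC metastasis versus matched primary AGASAC, DESeq2 called 5 genes, dog as replicate block called 1, and ATF3 was −0.40 in 1 fit of all 25 samples, which sets the metastases against all 11 primaries and not the matched 4. When single samples were left out there, FOSL2 was −0.22 without metastasis 1 and 0.78 without primary 1, JUN was −0.0135 without metastasis 2, and ATF3 was −0.19 to 0.50, highest without primary 4. For AGASAC metastasis versus HGA, genes called were 3536 with the Benjamini-Hochberg adjustment, 1153 with at least 10 counts in every sample (7657 tested) and 662 with replicate number as replicate block. Members called were 4 with the Benjamini-Hochberg adjustment, 4 with DESeq2, 4 with library size alone and 1 with replicate number as replicate block. When single samples were left out, 1543 to 2588 genes and 1 to 3 members were called. The replicate block of numbers pairs unrelated dogs, because HGA and AGASAC numbers do not pair. Library size alone moved the median of all genes, by −0.30 for HGA versus primary AGASAC, where 1053 of 3209 called genes were higher against 1523 of 3032, and by 0.28 for metastasis versus HGA, where 1383 of 2171 were higher against 1015 of 2124. For DV200 in HGA, FOSL1 was r 0.0493 with pseudocount 5. For FOS in primary AGASAC, JUND was r 0.0160 with library size alone and 0.0189 with pseudocount 5. Among values of single genes, 578 kept their call and direction, 92 lost a call, 13 gained one and 8 changed sign under alternatives, and 879, 45, 5 and 5 when single samples were left out. The cause was not tested.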
